A study of Drosophila melanogaster with 6 samples.

Results

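The genes examined here encode the storage, yolk and lipid carrier proteins of the insect fat body, the organ that serves the fly as both liver and adipose tissue. They were chosen by name, as known fat body secretory genes, and all 10 names were found among the 17807 genes of the deposited count table. They are the larval serum protein genes Lsp1alpha, Lsp1beta, Lsp1gamma and Lsp2, the fat body protein genes Fbp1 and Fbp2, the yolk protein genes Yp1, Yp2 and Yp3, and apolpp. Their levels were followed in brains dissected from Drosophila melanogaster pupae 24 h after puparium formation.

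The study compared 3 TetAXXC libraries with 3 WT libraries. TetAXXC flies carry targeted mutations in the CXXC zinc finger, which binds DNA in the Tet protein, made with Cas9 and a repair template in a nos-Cas9 stock. The DsRed marker used to pick the edited flies was later removed with piggyBac transposase. WT is named without a strain, so the stocks may differ at other loci. The sex of the pupae is not given, so the mix of sexes may differ between the libraries. The labels give 30 brains per genotype and 3 independent replicates per genotype.

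In late larvae the fat body secretes the larval serum proteins, hexamerins that accumulate in the haemolymph and are taken back up around pupariation as a store of amino acids for metamorphosis. Fbp1, itself a hexamerin relative, takes part in the receptor-mediated uptake of these proteins, and Fbp2 encodes a fat body protein related to alcohol dehydrogenase. Fbp1 and Lsp2 are classical targets of the moulting hormone ecdysone. Yolk proteins are made by the fat body and ovarian follicle cells of adult females, and apolpp encodes the precursor of apolipophorins I and II, the protein scaffold of the main lipid carrier of the haemolymph.

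Library totals ran from 18414259 to 19521285 gene counts in TetAXXC and from 17861742 to 18999539 in WT. Brain markers were high in all of them: the summed level of 6 neuron markers was 3363 to 3806 counts per 1000000 (CPM) in TetAXXC and 3409 to 4054 CPM in WT. Tet itself did not pass the test of genotype, at 867 ± 66.1 CPM in TetAXXC and 787 ± 88.7 CPM in WT (SD, n = 3 each), and counts per gene do not resolve the edited domain. Markers of testis differed strongly between the genotypes. Their summed level over 15 genes was 515, 158 and 211 CPM in TetAXXC replicates 1, 2 and 3, against 39.7, 13.4 and 11.1 CPM in WT replicates 1, 2 and 3.

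Transcripts of these genes were present in every brain library, and the tissue they came from was not tested. The 10 genes together reached 1738, 2323 and 1737 CPM in TetAXXC replicates 1, 2 and 3, and 2520, 2667 and 1875 CPM in WT replicates 1, 2 and 3. These sums are 0.174% to 0.232% of the counts of a TetAXXC library and 0.187% to 0.267% of those of a WT library. The ranges overlapped, with means of 1933 ± 338 CPM in TetAXXC and 2354 ± 422 CPM in WT (SD, n = 3 each). In bulk tissue, the number of fat body cells, their RNA per cell and RNA of the same genes from other cells cannot be told apart. Without a library of fat body alone the sums were not turned into a share of cells.

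**Figure D1:**
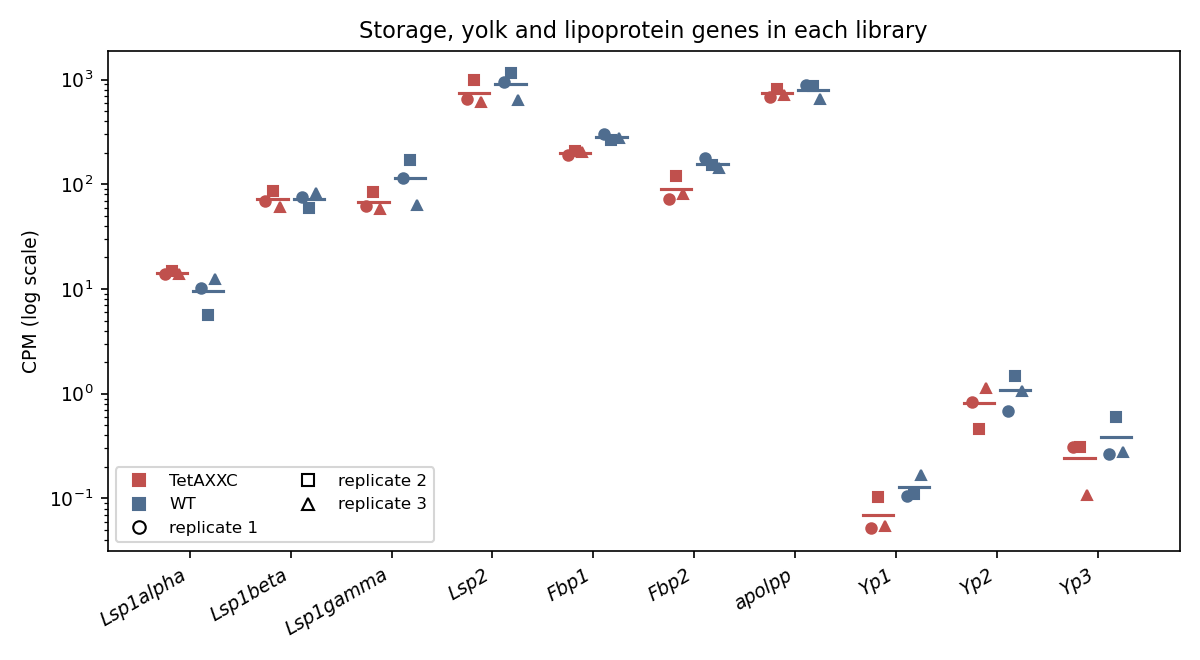
Level of each of the 10 genes in CPM (log axis) in the TetAXXC libraries (red) and the WT libraries (blue), with the replicate number shown by the symbol and the group mean by a bar. Lsp2 and apolpp lie between 609 and 1144 CPM in all libraries, the yolk protein genes stay below 1.5 CPM, and among the 8 genes tested the groups do not overlap for Fbp1, Fbp2 and Lsp1alpha.

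Corrected for exon length, Lsp2 was the most abundant of the 10 genes in both genotypes. Its mean level was 303 ± 85.6 CPM per kb in TetAXXC, rank 168 of 17807 genes, and 369 ± 102 CPM per kb in WT, rank 147 (SD, n = 3 each). Fbp2 came next by length-corrected level, at 84.8 ± 23.8 CPM per kb in TetAXXC and 146 ± 16.7 CPM per kb in WT. In TetAXXC apolpp followed, at 62.6 ± 5.93 CPM per kb, and then Fbp1, at 57.4 ± 2.63 CPM per kb. In WT this order was reversed, with Fbp1 at 81.5 ± 5.64 CPM per kb and apolpp at 68.2 ± 10.96 CPM per kb. In TetAXXC the range of apolpp overlapped those of Fbp2 and Fbp1, whereas in WT those of Lsp2, Fbp2, Fbp1 and apolpp were separate.

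The 3 subunits of larval serum protein 1 followed at lower length-corrected levels. Lsp1gamma had 27.2 ± 5.67 CPM per kb in TetAXXC and 46.3 ± 21.1 in WT, and Lsp1beta had 26.2 ± 4.88 CPM per kb in TetAXXC and 26.4 ± 4.55 in WT. The ranges of these neighbours overlapped in both genotypes. Lsp1alpha lay well below them, at 5.43 ± 0.246 CPM per kb in TetAXXC and 3.61 ± 1.35 in WT. The yolk protein genes closed the order, at 0.502 CPM per kb or less in TetAXXC and 0.665 or less in WT. The Lsp1 genes are paralogs, as are the yolk protein genes, and how reads that fit several of them were counted is not given in the sources used here.

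The comparison of genotypes was made on all 11198 genes that passed a filter on low counts, with edgeR's quasi-likelihood test and Benjamini-Hochberg adjustment over all of them. Of the 10 genes, 8 were tested, and 2 had an adjusted p under 0.05, Fbp1 and Fbp2, both lower in TetAXXC. Over all genes tested, 3.17% were called lower and 12.1% higher in TetAXXC, 15.2% in either direction. The median log2 fold change of the 8 genes was -0.35, with 7 negative and 1 positive value, against 0.0041 over all genes tested. The groups did not overlap for 3 of the 8 genes, beside 32.1% of all genes tested, so this count was near the background. Of these, 2 were lower and 1 higher, beside 10.7% and 21.4% of all genes. Both calls were also made with DESeq2 size factors, upper-quartile factors, raw library totals, no filter on low counts and the DESeq2 Wald test, which called 3.51%, 2.61%, 2.69%, 2.11% and 6.47% of genes lower. limma-voom called 0.661% of genes lower and Fbp1 as the 1 gene of the group.

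Fbp1 (FBgn0000639, chromosome 3L, 14094589 to 14098053 on the BDGP6 build, minus strand, 1 exon block of 3465 bases) was the steadiest of the genes that differed. It had 3613, 4017 and 3727 counts in TetAXXC replicates 1, 2 and 3, or 189, 206 and 202 CPM, against 5775, 4847 and 4944 counts in WT replicates 1, 2 and 3, or 304, 266 and 277 CPM. Every TetAXXC library lay below every WT library. Fbp1 averaged 199 ± 9.10 CPM in TetAXXC and 282 ± 19.5 CPM in WT (SD, n = 3 each). Its fitted level was 70.0% of WT, a log2 fold change of -0.51 ± 0.061 (SE; edgeR adjusted p = 0.0117). The call held whichever of the 6 libraries was left out, at edgeR adjusted p between 0.0127 and 0.0422, and under limma-voom, with an adjusted p of 0.0189.

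Fbp2 (FBgn0000640, chromosome 2L, 9426784 to 9427917, plus strand, 2 exon blocks, 1074 bases) fell by more but with a wider spread. It had 1381, 2346 and 1493 counts in TetAXXC replicates 1, 2 and 3, or 72.1, 120 and 81.1 CPM, against 3361, 2793 and 2529 counts in WT replicates 1, 2 and 3, or 177, 153 and 142 CPM. TetAXXC replicate 2 stood above the other TetAXXC libraries but still below all WT libraries. The means were 91.1 ± 25.6 CPM in TetAXXC and 157 ± 17.99 CPM in WT (SD, n = 3 each). Its fitted level was 57.5% of WT, a log2 fold change of -0.80 ± 0.18 (SE; edgeR adjusted p = 0.0293).

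The call for Fbp2 was lost in 5 of the 6 fits with a library left out. Its edgeR adjusted p was 0.0546 without TetAXXC replicate 1 and 0.107 without TetAXXC replicate 3, and 0.0816, 0.0964 and 0.0735 when WT replicate 1, 2 or 3 was dropped. Only the fit without TetAXXC replicate 2 kept it, at 0.0106. Its fold change stayed negative in all 6 fits, from -1.07 to -0.66 on the log2 scale. These fits called 1.98%, 3.8% and 1.39% of genes lower without TetAXXC replicate 1, 2 or 3, and 1.54%, 0.308% and 0.522% without WT replicate 1, 2 or 3. Fbp2 shares 48 bases of exon on the same strand with CG42847, which had 171, 71 and 85 counts in TetAXXC replicates 1, 2 and 3 and 28, 11 and 13 counts in WT replicates 1, 2 and 3, with an edgeR adjusted p of 0.0195.

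**Figure D2:**
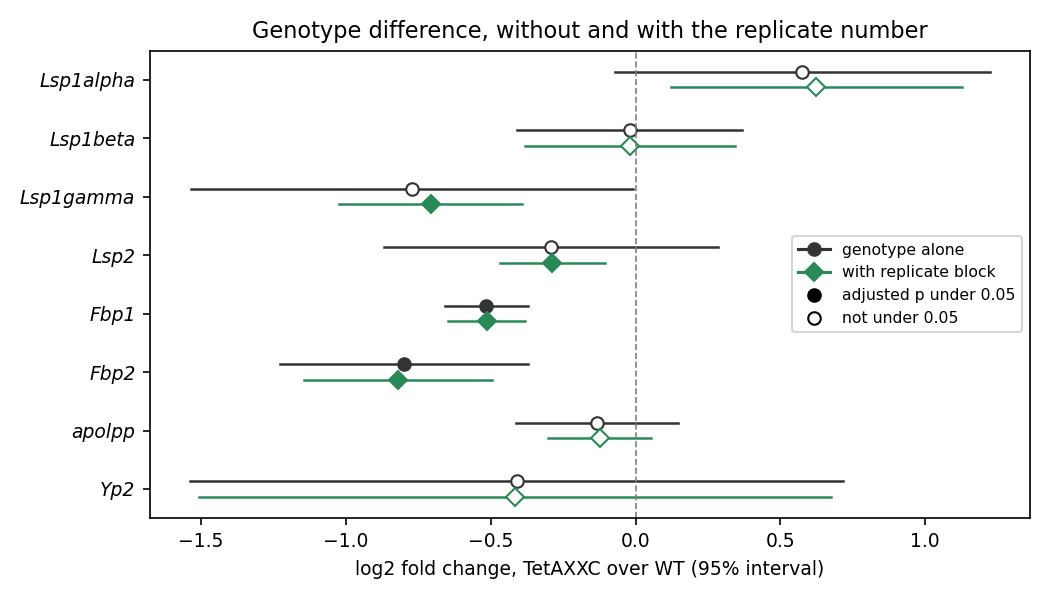
Log2 fold change, TetAXXC over WT, of the 8 genes tested, with its 95% interval, from the fit on genotype alone (black circles) and the fit with the replicate number as a block (green diamonds); filled symbols have an adjusted p under 0.05. Fbp1 and Fbp2 are filled in both fits, Lsp1gamma and Lsp2 only in the blocked fit.

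The larval serum protein genes showed no common direction. Lsp2 (FBgn0002565, chromosome 3L, 12129393 to 12131869, plus strand) encodes the subunit of larval serum protein 2. It had 12424, 19419 and 11220 counts in TetAXXC replicates 1, 2 and 3, or 649, 995 and 609 CPM, against 18129, 20835 and 11461 counts in WT replicates 1, 2 and 3, or 954, 1144 and 642 CPM. Replicate 2 was highest and replicate 3 lowest in both genotypes, and the groups overlapped widely. The log2 fold change of Lsp2 was -0.29 with a 95% interval from -0.87 to 0.28 and an edgeR adjusted p of 0.540. Leaving out a library moved it to -0.16 (TetAXXC replicate 3), -0.57 (TetAXXC replicate 2), -0.11 (WT replicate 2) or -0.52 (WT replicate 3).

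Lsp1gamma (FBgn0002564, chromosome 3L, 66430 to 68995, plus strand), a subunit gene of larval serum protein 1, had a coefficient of variation of 20.8% in TetAXXC and 45.6% in WT. It had 62.0, 84.3 and 57.9 CPM in TetAXXC replicates 1, 2 and 3, against 114, 169 and 63.8 CPM in WT replicates 1, 2 and 3. The WT libraries spanned 2.65-fold, and WT replicate 3 fell inside the TetAXXC range. Its log2 fold change was -0.77 (95% interval from -1.53 to -0.0098), with an edgeR adjusted p of 0.184. It moved to -0.41 without WT replicate 2 and to -1.09 without WT replicate 3.

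Lsp1beta (FBgn0002563, chromosome 2L, 898500 to 901316, plus strand) was nearly level between the genotypes. It had 68.6, 86.9 and 60.7 CPM in TetAXXC replicates 1, 2 and 3, and 75.5, 58.7 and 83.2 CPM in WT replicates 1, 2 and 3. WT replicate 2, which was highest of its group for Lsp2 and Lsp1gamma, was lowest of all libraries here. Its log2 fold change was -0.020 with a 95% interval from -0.41 to 0.37 and an edgeR adjusted p of 0.967.

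Lsp1alpha (FBgn0002562, chromosome X, 12490291 to 12492982, plus strand) was the single gene of the group with a positive fold change. It had 13.9, 15.01 and 13.8 CPM in TetAXXC replicates 1, 2 and 3, against 10.3, 5.60 and 12.5 CPM in WT replicates 1, 2 and 3. All TetAXXC libraries lay above all WT libraries, and WT replicate 2 stood lowest by far. The TetAXXC libraries spanned 1.08-fold and the WT libraries 2.24-fold. Its log2 fold change was 0.58 ± 0.27 (SE; 95% interval from -0.072 to 1.22; edgeR adjusted p = 0.246), and 0.30 without WT replicate 2.

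The balance of the Lsp1 subunits inside a library, which does not depend on library scaling, was read from count ratios. Counts of Lsp1gamma per count of Lsp1beta were 0.903, 0.970 and 0.953 in TetAXXC replicates 1, 2 and 3, against 1.51, 2.88 and 0.767 in WT replicates 1, 2 and 3. Counts of Lsp1gamma per count of Lsp1alpha were 4.45, 5.61 and 4.18 in TetAXXC, against 11.1, 30.2 and 5.09 in WT. Both ratios overlapped between the groups through WT replicate 3. Counts of Lsp1beta per count of Lsp1alpha were lower in every TetAXXC library, at 4.93, 5.79 and 4.38, than in the WT libraries, at 7.32, 10.5 and 6.63. Lsp1alpha by itself did not overlap either, at an edgeR adjusted p of 0.246. Among single genes tested, 32.1% did not overlap, and how often ratios of gene pairs do so was not counted.

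Libraries with the same replicate number deviated from their group means together, over all genes, so the numbers were also used as a block. In that fit 4 of the 8 genes were called, all lower in TetAXXC, while 5.31% of all genes tested were called lower and 21.1% in either direction. Lsp1gamma then stood at -0.71 ± 0.14 (SE; edgeR adjusted p = 0.00616) and Lsp2 at -0.29 ± 0.079 (SE; adjusted p = 0.0335) on the log2 scale. With replicate number 1, 2 or 3 left out of both genotypes, the blocked fit called 4.62%, 4.61% and 2.57% of genes lower. Pair by pair, the log2 ratio of CPM, TetAXXC over WT, was -0.88, -1.01 and -0.14 for Lsp1gamma and -0.56, -0.20 and -0.075 for Lsp2 in numbers 1, 2 and 3. Both genes were lower in TetAXXC in 3 of 3 pairs, by little in number 3. The same ratios were -0.69, -0.37 and -0.45 for Fbp1 and -1.30, -0.35 and -0.80 for Fbp2. These 4 genes were called from the same pairs, so their common direction adds nothing to the call. Of the genes not called, Lsp1alpha was at 0.43, 1.42 and 0.14 and Lsp1beta at -0.14, 0.56 and -0.45. Yp2 was at 0.29, -1.68 and 0.10 and apolpp at -0.37, -0.091 and 0.12. How many of all genes are lower in 3 of 3 pairs was not counted.

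**Figure D3:**
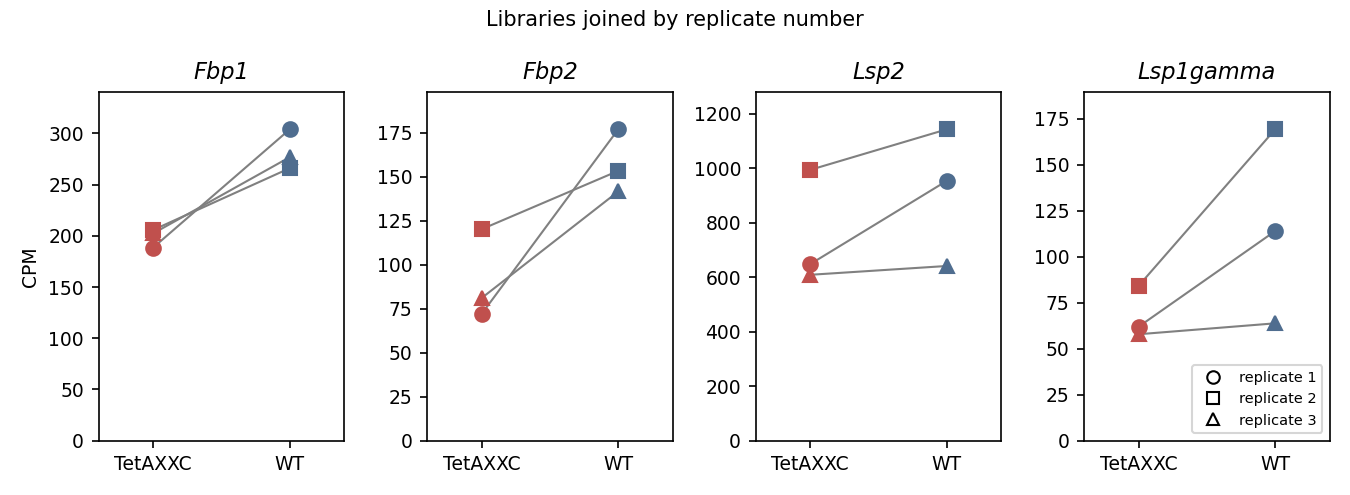
CPM of Fbp1, Fbp2, Lsp2 and Lsp1gamma in each library, TetAXXC on the left and WT on the right of each panel, with libraries of the same replicate number joined by a line. The genes shown are those called in the blocked fit. Every TetAXXC library lies below the WT library of its number, with nearly flat lines in number 3 for Lsp2 (609 against 642 CPM) and Lsp1gamma (57.9 against 63.8 CPM).

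Lsp2 carries an antisense gene, asRNA:CR11538, which shares 2096 bases of exon with it on the other strand. This RNA had 938, 1461 and 868 counts in TetAXXC replicates 1, 2 and 3, and 1450, 1640 and 798 counts in WT replicates 1, 2 and 3. Its counts were 7.52% to 7.74% of those of Lsp2 in TetAXXC and 6.96% to 8.00% in WT, a nearly fixed share in all libraries. The libraries were made strand-specific, but the strand setting of the counting is not given in the sources used here. The antisense counts may therefore include reads of Lsp2, and the counts of Lsp2 may be affected too. The same limit holds for Yp1, which shares 875 bases of exon with asRNA:CR45601 on the other strand. It also holds for apolpp, which shares 96 bases with Zyx on the other strand.

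The lipid carrier gene apolpp (FBgn0087002, chromosome 4, 1060969 to 1077273, plus strand, 10 exon blocks, 11766 bases) did not pass the test. It had 683, 815 and 711 CPM in TetAXXC replicates 1, 2 and 3, against 884, 869 and 654 CPM in WT replicates 1, 2 and 3. WT replicate 3 was the lowest library of all, so the groups overlapped. The log2 fold change was -0.13 with a 95% interval from -0.41 to 0.15 and an edgeR adjusted p of 0.570. Leaving out TetAXXC replicate 1 or 2 moved it to -0.085 or -0.23, and leaving out WT replicate 1, 2 or 3 to -0.058, -0.082 or -0.28.

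Set against apolpp inside the same library, Fbp1 and Fbp2 were lower in TetAXXC. Counts of Fbp1 per count of apolpp were 0.276, 0.252 and 0.285 in TetAXXC replicates 1, 2 and 3, against 0.344, 0.306 and 0.424 in WT replicates 1, 2 and 3. Counts of Fbp2 per count of apolpp were 0.105, 0.147 and 0.114 in TetAXXC, against 0.200, 0.176 and 0.217 in WT. Neither ratio overlapped between the groups, and how often ratios of other genes do so was not counted. Set against Lsp2 instead, Fbp1 overlapped, at 0.291, 0.207 and 0.332 in TetAXXC and 0.319, 0.233 and 0.431 in WT. Fbp2 per count of Lsp2 did not, at 0.111, 0.121 and 0.133 in TetAXXC and 0.185, 0.134 and 0.221 in WT. The ratio of Lsp2 to apolpp did overlap, at 0.949, 1.22 and 0.857 in TetAXXC and 1.08, 1.32 and 0.982 in WT. Of the summed CPM of the 10 genes, Fbp1 and Fbp2 together made up 14.0% to 16.3% in TetAXXC and 15.7% to 22.3% in WT, so this share overlapped.

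**Figure D4:**
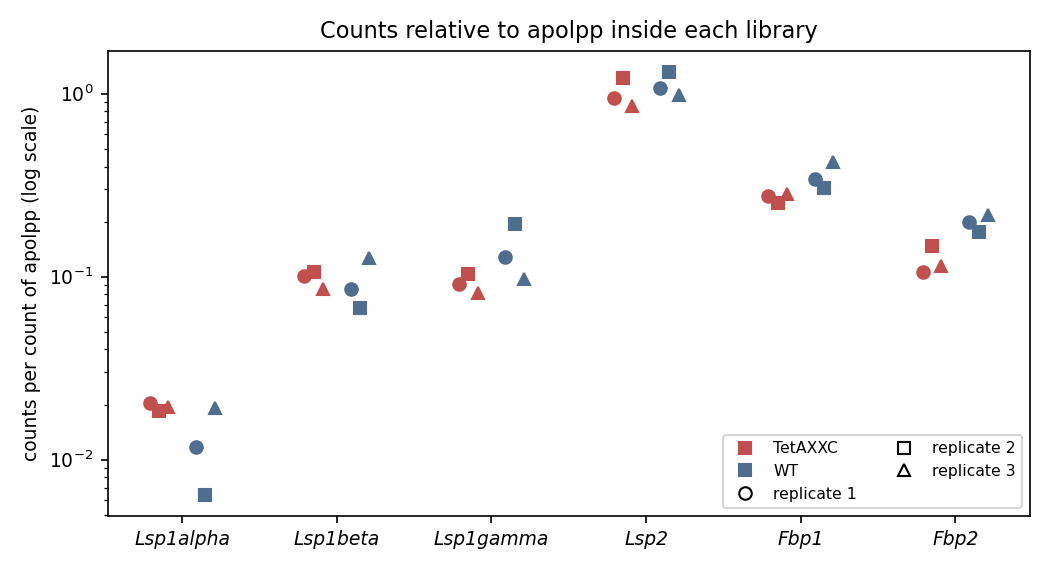
Counts of 6 storage and fat body protein genes per count of apolpp in each library (log axis), TetAXXC in red left of WT in blue. The groups are apart for Fbp1 (0.252 to 0.285 against 0.306 to 0.424) and Fbp2 (0.105 to 0.147 against 0.176 to 0.217), and overlap for Lsp2, Lsp1gamma, Lsp1beta and Lsp1alpha.

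The yolk protein genes were close to absent. Yp1 (FBgn0004045, chromosome X, 10053811 to 10055498, plus strand) had 1, 2 and 1 counts in TetAXXC replicates 1, 2 and 3 and 2, 2 and 3 counts in WT replicates 1, 2 and 3. Yp3 (FBgn0004047, chromosome X, 13759546 to 13761547, plus strand) had 6, 6 and 2 counts in TetAXXC and 5, 11 and 5 counts in WT. Neither passed the filter on low counts, and Yp1 was at or under a floor of 3 counts in every library, so no fold is given for them.

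Yp2 (FBgn0005391, chromosome X, 10050951 to 10052636, minus strand), which lies 1174 bases from Yp1 and is transcribed away from it, was counted at 16, 9 and 21 in TetAXXC replicates 1, 2 and 3. In WT replicates 1, 2 and 3 it had 13, 27 and 19 counts. The groups overlapped, and the log2 fold change of -0.41 had a 95% interval from -1.54 to 0.72 and an edgeR adjusted p of 0.680. It ran from -0.74 without TetAXXC replicate 3 to -0.12 without WT replicate 2. The yolk receptor gene yl had 8, 2 and 7 counts in TetAXXC and 0, 0 and 1 counts in WT. Of 10 matched genes of follicle cells and eggshell, 8 had at most 10 counts in every library. The summed level of these 10 was 1.30 to 2.72 CPM in TetAXXC and 0.684 to 1.85 CPM in WT.

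Other genes known from fat body were present unevenly. Of 17 such genes, 4 had at most 10 counts in every library, among them Pepck1, with 0 counts in all 6, which allows up to 0.154 to 0.168 CPM per library by counting error alone. Adh, an abundant enzyme of adult and larval fat body, had 3 to 15 counts per library in TetAXXC and 9 to 22 in WT. Tsf1, the iron carrier transferrin, was abundant, at 10429 to 12898 counts in TetAXXC and 12144 to 12841 in WT. The summed level of the 17 genes was 763 to 882 CPM in TetAXXC and 882 to 932 CPM in WT.

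Of the 12 of these genes that were tested, 2 fell and none rose, beside 3.17% lower and 12.1% higher among all genes tested. CCHa2, a peptide hormone gene, was at 16.5 ± 1.25 CPM in TetAXXC and 22.6 ± 2.42 CPM in WT (SD, n = 3 each), or -0.47 on the log2 scale (edgeR adjusted p = 0.0277). Jhe, which encodes juvenile hormone esterase, was at 24.9 ± 2.01 CPM in TetAXXC and 30.5 ± 1.23 CPM in WT, or -0.31 on the log2 scale (edgeR adjusted p = 0.0387). The median log2 fold change of the 12 genes was -0.14. CCHa2 lost the threshold in 4 fits, without TetAXXC replicate 3 and without WT replicate 1, 2 or 3, with edgeR adjusted p up to 0.109. Jhe kept it only without TetAXXC replicate 3, with adjusted p up to 0.131 in the others, and missed it with upper-quartile factors (0.0593). Under limma-voom neither passed, at adjusted p of 0.0888 for CCHa2 and 0.0990 for Jhe.

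Among genes of ecdysone and juvenile hormone response, 3 of 13 tested fell and none rose, beside the same 3.17% and 12.1% of all genes tested. Hr4, an ecdysone-induced nuclear receptor gene, was at 64.7 ± 10.8 CPM in TetAXXC and 144 ± 11.2 CPM in WT (SD, n = 3 each), or -1.17 on the log2 scale (edgeR adjusted p = 0.00625). Eip78C, another, was at 138 ± 9.41 CPM in TetAXXC and 233 ± 26.8 CPM in WT, or -0.77 on the log2 scale (adjusted p = 0.00922). Eip74EF, an ETS factor gene of the early ecdysone response, also fell, at -0.45 on the log2 scale (adjusted p = 0.0167). The first 2 kept the threshold in each fit with a library left out, and Eip74EF missed it without WT replicate 2, at 0.0516. The receptor genes EcR and usp were level, with log2 fold changes of -0.00036 and 0.0049 (adjusted p = 0.999 and 0.974). The gene br, another early ecdysone target, was at 0.58 (adjusted p = 0.0835), and at 0.59 with the replicate block (adjusted p = 9.39e-04).

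Of 12 genes of lipid storage, 1 was higher and 1 lower, a count near the 12.1% and 3.17% of all genes tested. Lip4, a lipase gene, was at 147 ± 13.8 CPM in TetAXXC and 95.9 ± 8.35 CPM in WT (SD, n = 3 each), or 0.61 on the log2 scale (edgeR adjusted p = 0.0167). The triglyceride synthesis gene mdy was at 29.4 ± 1.99 CPM in TetAXXC and 36.1 ± 1.47 CPM in WT, or -0.31 on the log2 scale (adjusted p = 0.0280). Lip4 missed the threshold without WT replicate 2 (0.0816) and without WT replicate 3 (0.0562). These 2 fits called only 18 and 43 genes of the whole table higher, against 1352 with all libraries. For mdy the adjusted p reached 0.108 and it missed the threshold without TetAXXC replicate 3, without WT replicate 1, 2 or 3, and under limma-voom (0.0891). Lsd-1, which encodes a lipid droplet protein typical of fat body, was at -0.69 on the log2 scale (adjusted p = 0.110), and at -0.72 in the blocked fit (adjusted p = 0.00106). Its counts were 420, 625 and 303 in TetAXXC replicates 1, 2 and 3, and 766, 780 and 532 in WT replicates 1, 2 and 3, highest in replicate 2 and lowest in replicate 3 of each genotype, as for Lsp2.

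Markers of other tissues that could come with a dissected brain were read beside these genes. Among hemocyte genes 2 of 9 rose, beside 12.1% of all genes tested. They were Col4a1 and vkg, both collagen IV chains, by 0.41 and 0.43 on the log2 scale (edgeR adjusted p = 0.0164 and 0.0187). Both missed the threshold when either WT replicate 2 or 3 was left out, and vkg also without TetAXXC replicate 3, with adjusted p from 0.0522 to 0.0816. Under limma-voom vkg missed it too, at 0.0553. Without WT replicate 2 or 3, only 18 and 43 genes of the whole table were called higher, against 1352 with all libraries. The summed level of 10 hemocyte genes was 727 to 741 CPM in TetAXXC and 690 to 735 CPM in WT. Of 8 tested genes of cuticle and epidermis 1 fell, beside 3.17% of all genes tested. This was dpy, at -0.63 on the log2 scale (edgeR adjusted p = 0.0191). Its adjusted p reached 0.0845 and 0.0699 when WT replicate 2 or 3 was left out, and 0.0568 under limma-voom. The list sum was 113 to 137 CPM in TetAXXC and 165 to 188 CPM in WT, which did not overlap. Among single genes tested, 10.7% lay lower in TetAXXC without overlap.

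Of 6 glial markers 4 fell, beside 3.17% of all genes tested. They were Gat, alrm, moody and wrapper, with log2 fold changes of -1.55, -1.10, -0.24 and -0.20 and edgeR adjusted p from 3.87e-04 to 0.0170. Gat and alrm kept the threshold in each fit with a library left out, while moody and wrapper missed it without WT replicate 2, both at 0.0816, and without WT replicate 3, at 0.0647 and 0.0683, and under limma-voom, at 0.0516 and 0.0553. Their list sum was 671 to 710 CPM in TetAXXC and 776 to 813 CPM in WT.

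Ring gland markers followed the replicate number and not the genotype. Their summed level was 95.5, 134 and 67.4 CPM in TetAXXC replicates 1, 2 and 3 and 91.4, 139 and 62.1 CPM in WT replicates 1, 2 and 3, the order seen for Lsp2. Of 12 tested testis genes 10 rose, beside 12.1% of all genes tested. They rose by 3.53 to 4.01 on the log2 scale (edgeR adjusted p between 0.0167 and 0.0250). All 10 missed the threshold when either WT replicate 2 or 3 was left out, and Mst84Da also without TetAXXC replicate 3. Without WT replicate 2 or 3, only 18 and 43 genes of the whole table were called higher, against 1352 with all libraries. limma-voom called 0 of the 12 testis genes, with adjusted p of at least 0.105, while all 12 had an unadjusted edgeR p under 0.05 and DESeq2 called 12. Of all 11198 genes tested, limma-voom called 56 higher and DESeq2 1677, and 2958 had an unadjusted edgeR p under 0.05. The part of testis, glial or cuticle RNA in the differences of Fbp1 and Fbp2 was not tested. In TetAXXC replicates 1, 2 and 3 the testis sum was 515, 158 and 211 CPM. Fbp1 was at 189, 206 and 202 CPM in these libraries, and Fbp2 at 72.1, 120 and 81.1 CPM. In WT replicates 1, 2 and 3 the testis sum was 39.7, 13.4 and 11.1 CPM. There Fbp1 was at 304, 266 and 277 CPM, and Fbp2 at 177, 153 and 142 CPM. Replicate 1 had the highest testis sum in both genotypes, with the lowest Fbp1 and Fbp2 in TetAXXC and the highest in WT.

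The remaining 9 lists held no gene past the threshold. They cover lipid transport and uptake, prophenoloxidases, GATA and other fat body factors, sex determination, fat body remodelling, muscle, ring gland, follicle cells and eggshell, and neurons. Of their 47 tested genes, 0 had an edgeR adjusted p under 0.05, 4 had an unadjusted p under 0.05, and DESeq2 called 3 and limma-voom 0. The blocked fit called 3 of the 47, all lower in TetAXXC, beside 5.31% of all genes tested called lower. They were mgl, a lipoprotein receptor gene, Act88F, a flight muscle actin gene, and futsch, a microtubule-associated protein gene. The lipoprotein receptor genes LpR1 and LpR2 had log2 fold changes of 0.026 and 0.0065, and srp, a GATA factor gene of fat body and blood cells, one of -0.024.

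**Figure D5:**
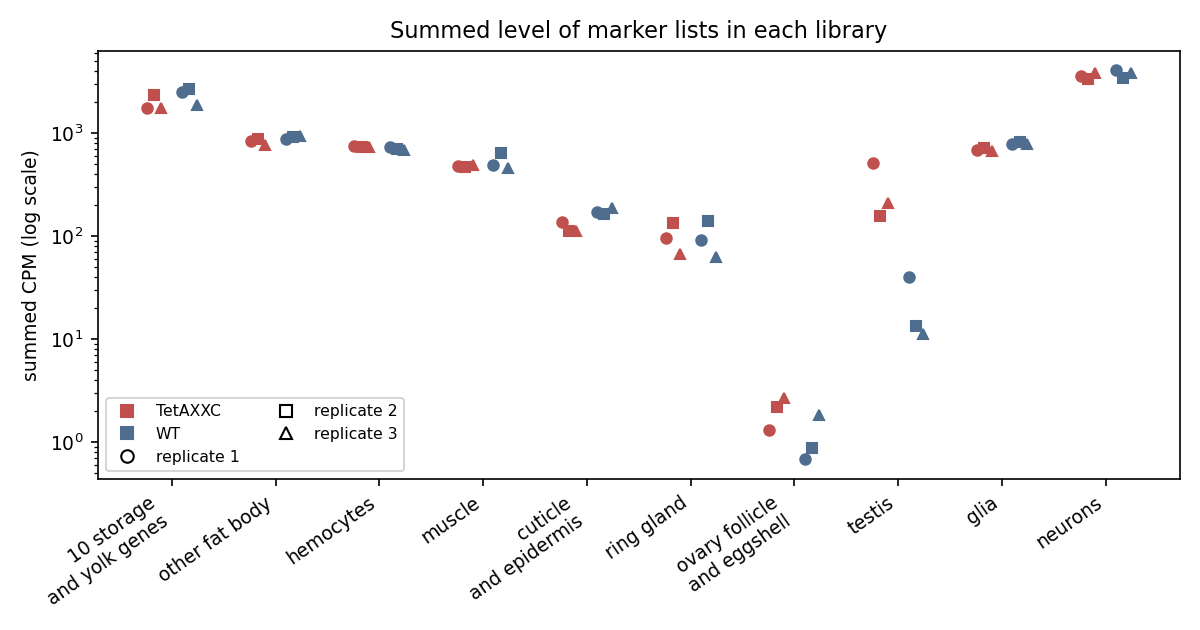
Summed CPM (log axis) of the 10 storage and yolk genes and of 9 marker lists in each library, TetAXXC in red left of WT in blue, with the replicate number shown by the symbol. The testis list is apart by genotype (158 to 515 against 11.1 to 39.7 CPM), the ring gland list is ordered by replicate number in both genotypes, and the 10 genes overlap (1737 to 2323 against 1875 to 2667 CPM).

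The genes whose levels followed the sum of the 10 most closely were taken from 10522 genes with a mean of at least 1 CPM, by Pearson correlation of log2(CPM + 1) over the 6 libraries. They were asRNA:CR43786, Mvb12, CG1129, CG1635 and Hn, with correlations from 0.985 to 0.993. A correlation takes no account of how far a gene varies. Over the 6 libraries asRNA:CR43786 ran only from 10.5 to 12.4 CPM and Mvb12 from 95.3 to 99.7 CPM. CG1129 ran from 67.2 to 75.9 CPM and CG1635 from 17.7 to 22.8 CPM, against 1737 to 2667 CPM for the sum. Hn, which encodes phenylalanine hydroxylase and stands in the list of other fat body genes, was at 6.58, 8.66 and 6.52 CPM in TetAXXC replicates 1, 2 and 3 and 8.68, 9.82 and 6.72 CPM in WT replicates 1, 2 and 3. Their edgeR adjusted p for genotype lay between 0.333 and 0.620. The libraries share dissection and depth, and with 6 points among so many genes such values describe these libraries only.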

How the data were processed

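RNA of pupal brains was sequenced after poly(A) selection and strand-specific (dUTP) library preparation, per the labels' protocols. The deposited values are whole-number read counts per gene, not normalized, with exon coordinates and merged exon length. The submitters' processing notes name Trimmomatic 0.39, HISAT2, SAMtools, featureCounts and DESeq2, and the builds BDGP6 and dm6. Other versions and the strand setting are not given in the sources used here. All 10 genes had the same chromosome, start, end and strand in the Ensembl BDGP6 annotation.

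CPM is counts per 1000000 of a library's gene counts, and CPM per kb divides it by the merged exon length. Genotype was tested with edgeR 4.0.16 in R 4.3.3: filterByExpr (minimum count 10, minimum total 15), TMM, glmQLFit and glmQLFTest (not robust, legacy dispersion), 2-sided, Benjamini-Hochberg adjusted over 11198 genes, threshold 0.05. 95% intervals use the fit's t quantile and are not adjusted. With 3 libraries per group, p-values measure the spread between these libraries. Chi-square per degree of freedom between replicates was 6.94 to 17.8, a spread beyond counting error, and each library was counted as a replicate. The labels call the replicates independent, which these values cannot check.

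Replicate numbers come from the titles. Same-numbered libraries had correlated deviations from their group means (0.652, 0.419 and 0.344, all over 0.1), so the numbers were taken to pair the libraries. TetAXXC replicate 2 and WT replicate 3 also passed 0.1, at 0.230, and all other unlike numbers were negative. Deviations from a mean of 3 libraries are tied to each other, so these correlations are not independent. The alternatives were other scalings, no filter, DESeq2 1.42.0, limma-voom 3.58.1, the replicate block and each library left out. The blocked fit without a replicate number was added after seeing the data. Fits were tested on simulated data.

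Named genes are the 10 genes, Tet, yl, up to 5 called genes per list and the 5 most alike. Other genes were named after their values were seen. The genes and lists were chosen with earlier results of these data known. CtsD and dec-1 were not matched to the table.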

Additional observations from a re-analysis of the deposited data

How the results depend on the processing

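Under the 7 alternatives with all libraries, Fbp1 kept its call and direction, with log2 fold changes from -0.53 to -0.50. Fbp2 kept its own in all but limma-voom, where it was -0.82 with an adjusted p of 0.0836. limma-voom called 130 genes in all, 56 higher and 74 lower, 1 of the 10 genes and 7 genes of the other lists, against 1707, 1352, 355, 2 and 24. The DESeq2 Wald test called 725 genes lower. The cause was not tested.

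With the replicate block 595 genes were lower and 4 of the 10 genes were called, Lsp1gamma at -0.71 and Lsp2 at -0.29 among them. The block changed no other call of the 8 genes. With a replicate number left out of the blocked fit, 3 to 5 of the 10 genes were called. Without number 1, 2 or 3, Lsp1gamma was at -0.62, -0.56 and -0.96 and Lsp2 at -0.15, -0.36 and -0.39, called each time. For Lsp2 the edgeR adjusted p was 0.0464, 0.0077 and 0.0441, so close to the threshold without number 1 or 3. These fits hold fewer pairs than the full blocked fit, so being called each time says little on stability. Lsp1beta was at 0.044, -0.34 (called) and 0.20, Yp2 from -0.73 to 0.15 and apolpp from -0.24 to 0.0020, so these had no stable direction. Fbp2 was at -0.82 without number 3, with an adjusted p of 0.0516.

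With each library left out in turn, 54 to 2095 genes were called, 18 to 1653 higher and 36 to 442 lower, with 1 to 2 of the 10 genes and 4 to 31 of the other lists. Fbp2 ran from -1.07 to -0.66 and Lsp1beta from -0.20 to 0.089. The log2 ratio of the mean summed CPM of the 10 genes, -0.28 with all libraries, ran from -0.44 without TetAXXC replicate 2 to -0.19 without WT replicate 2.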
